A study of Simmondsia chinensis with 44 samples.

Results

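In the dry seed of jojoba (Simmondsia chinensis), 164 of 23491 counted genes stood at least 4-fold above every developing stage while showing little difference between the parts of the mid-stage seed. The members were chosen by their group means in the deposited normalized counts, each mean raised by 1. A member had a dry-seed mean of at least 20, at least 4 times the mean of early, mid and late seed alike, and part means of at least 10 whose highest was under 1.5 times the lowest over cotyledon, embryonic axis and seed coat. The dry-seed criteria alone kept 986 genes, of which 503 differed by 1.5-fold or more between the parts and 319 fell under the minimum in a part. The rule allows at most 200 genes, and no gene had to be left out for that limit. The contrasts of dry seed with the other stages, and of the parts with each other, therefore fixed the list and are given below as a description, with no test.

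The libraries came from seeds of a single germplasm accession, PARL# 940, with no treatment named in the labels. In a developmental series, early-stage, mid-stage and late-stage developing seed and dry seed were each sequenced in 6 libraries. In a dissection series of the mid stage, cotyledons, embryonic axis, seed coat and whole seed were each sequenced in 5 libraries. Neither the age of the seeds in days, nor whether dry seeds kept their coat, nor whether libraries of a group came from separate plants is stated, so p-values measure the spread between libraries, which may be technical.

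Seeds that tolerate drying end their development with a maturation phase, in which abscisic acid signalling drives the making of protective proteins, and then lose most of their water. The dry embryo keeps a store of messenger RNA made during maturation, part of which is translated when the seed takes up water again. In jojoba the embryo fills the seed with little endosperm, and its cotyledons store liquid wax esters, while the coat is maternal tissue around it. Here the gene identifiers are paired with no names or functions, so no role can be given to a member, and genes are described by identifier and level. The cell type behind each library is taken from its label, since markers would need gene names as well.

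Depth was 7713214 to 16014089 counts per library in early, mid and late seed, 15658880 to 23773845 in dry seed and 9882334 to 32758764 in the dissection series. Of the 164 members, 160 had a count in each of the 44 libraries, and all 164 passed the filter on low counts in both series. Levels are given as deposited normalized counts, which are counts divided by a factor for each library. The tables were normalized separately, so a level in the developmental series is not compared with one in the dissection series, and without gene lengths the levels of different genes are not ranked. Levels are relative to the other RNA of a library, and in these bulk samples fewer cells of a type and less RNA per cell cannot be told apart.

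In dry seed the members together took 3.06% to 3.37% of all counts, and in every early, mid and late library they took between 0.496% and 0.678%. Their share was 3.20% ± 0.13 in dry seed, 0.574% ± 0.030 in early seed, 0.602% ± 0.040 in mid seed and 0.566% ± 0.063 in late seed (SD, n = 6). The groups do not overlap, and the developing stages lay close together. Since the rule fixed this difference, the shares are a description. Without the most counted member, Sc16g0006380, they were 2.81% ± 0.07 in dry seed and 0.505% ± 0.026, 0.505% ± 0.030 and 0.468% ± 0.044 in early, mid and late seed. The median member stood at 10.71 ± 0.12 on the log2(normalized count + 1) scale in dry seed, against 7.89 ± 0.05, 7.97 ± 0.10 and 7.99 ± 0.15 in the developing stages (SD, n = 6).

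**Figure D1:**
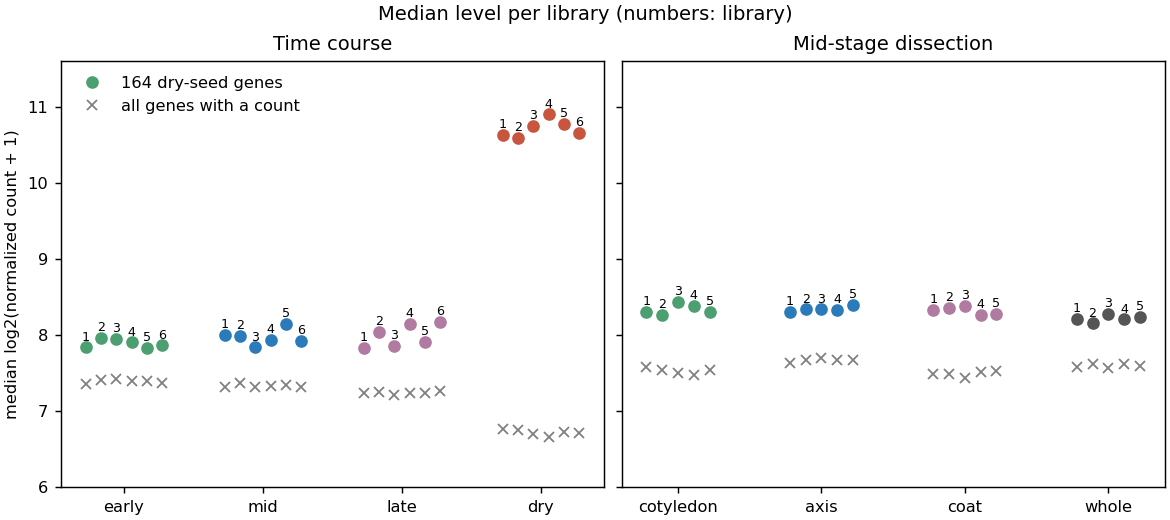
Median log2(normalized count + 1) per library, for the 164 dry-seed genes (filled points, numbered by library) and for all genes with a count (crosses), in the developmental series (left, 6 libraries per stage) and the mid-stage dissection series (right, 5 libraries per group). The dry-seed libraries lie between 10.59 and 10.90 and every library of the other stages between 7.83 and 8.17; the series were normalized separately.

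The ratio of the dry-seed mean to the next highest stage ran from 4.01 to 38.9, with a median of 4.85. It was from 4 to under 5 in 90 members, from 5 to under 8 in 50, from 8 to under 16 in 18 and 16 or more in 6. A large share of the list therefore lay close to the limit that defines it. The member nearest to the limit had a ratio of 4.008 and the nearest gene outside it 3.999, and 183 further genes with even parts had ratios from 3 to under 4. Of all 23491 genes, 4.61% had a dry-seed mean at least 4-fold above each other stage.

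In 163 of the 164 members the lowest dry-seed library was above the highest library of any other stage. This held for 18.4% of the 18440 genes tested in that series, and since the rule used the same values nothing is read from the difference. The exception, Sc09g0009910, singled out after its values were seen, had 756 normalized counts in its lowest dry-seed library and 934 in late-seed library 6. Across all genes tested, the median log2 ratio of dry to late seed was -0.14 in the deposited values and -0.10 in TMM-scaled CPM. With TMM-scaled values in the rule the list held 179 genes, 161 of them on the present list. Leaving out single libraries gave lists from 152 genes (without dry-seed library 4) to 180 genes (without dry-seed library 2), and 97 members stayed on the list whichever library was left out.

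**Figure D2:**
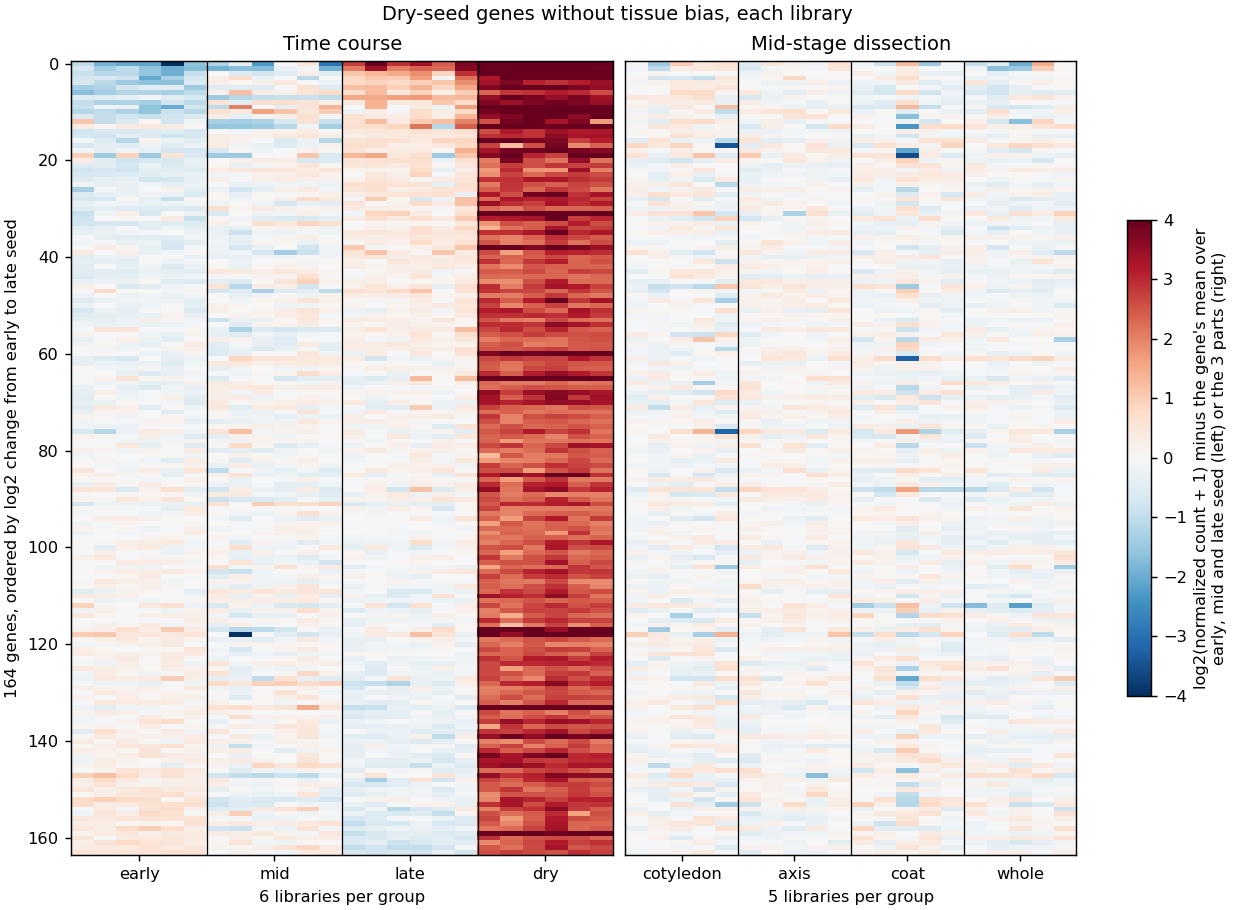
Each of the 164 genes (rows, ordered by the fitted log2 change from early to late seed) in each of the 44 libraries (columns). Colour is log2(normalized count + 1) minus the gene's mean over early, mid and late seed on the left and over the 3 dissected parts on the right, with the colour scale ending at 4 either way. The dry-seed columns are red in nearly every row, the developing stages differ mainly in the rows at the top and bottom, and the parts are pale except for single libraries such as seed coat library 3.

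Sc16g0006380 and Sc05g0003740 had the most dry-seed counts among the members. Sc16g0006380 ranged from 38969 to 76864 normalized counts over the dry-seed libraries, with a median of 67804, and its means were 7912 ± 904 in early, 12212 ± 1881 in mid and 14253 ± 3628 in late seed (SD, n = 6). It was thus already well counted during development, and its dry-seed ratio of 4.41 was below the median of the list. Sc05g0003740 ranged from 20207 to 36168 in dry seed, with a median of 25544, against means of 574 ± 82 in early, 1065 ± 371 in mid and 432 ± 92 in late seed. Its ratio to the next stage was 24.6, and it fell from mid to late seed before it stood highest in the dry seed.

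The largest ratios belonged to Sc01g0002360 and Sc17g0000500. Sc01g0002360 had 27.8 to 62.0 normalized counts in early seed, 33.6 to 60.6 in mid seed, 47.8 to 97.7 in late seed and 1481 to 6672 in dry seed, with a dry-seed median of 1927. Its ratio was 38.9, and dry-seed library 4 alone held the 6672, while the others were at most 3724. Sc17g0000500 went from 14.8 ± 7.1 in early, 45.7 ± 36.8 in mid and 44.3 ± 27.2 in late seed (SD, n = 6) to 1548 ± 300 in dry seed, a ratio of 33.2. Its dry-seed libraries lay between 1257 and 2063, so the spread between them was small beside the step from late seed. Both genes were near the limit of 1.5 between parts, at 1.48 for Sc01g0002360 and 1.46 for Sc17g0000500, and each place rested on 1 library. Sc01g0002360 leaves the list without cotyledon library 5, at 15.8 against 34.2 to 60.6 in the other cotyledon libraries. Sc17g0000500 leaves it without seed coat library 3.

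Dry-seed libraries did not carry the members equally. Library 4 held the highest dry-seed value of 89 members, or 54.3%, whereas it held the highest value of 23.9% of all genes tested. The median member was 0.29 higher in library 4 than in the mean of the other dry-seed libraries on the log2 scale, and for the median of all genes tested that difference was -0.05. The members' summed share of counts was nevertheless lowest in library 4, at 3.06%, and highest in library 5, at 3.37%. Libraries 1 and 2 were on the other side, with the lowest value of 28.7% and 31.1% of the members, against 22.1% and 20.7% of all genes tested. The dry-seed values of these libraries entered the rule, so nothing is read from the contrasts with all genes tested. The coefficient of variation over the 6 dry-seed libraries had a median of 21.2% over the members and 25.9% over all genes tested. It was smallest for Sc08g0002620, at 3.71%, with values from 4220 to 4687, and largest for Sc17g0001180, at 80.5%, with values from 392 to 3120.

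**Figure D3:**
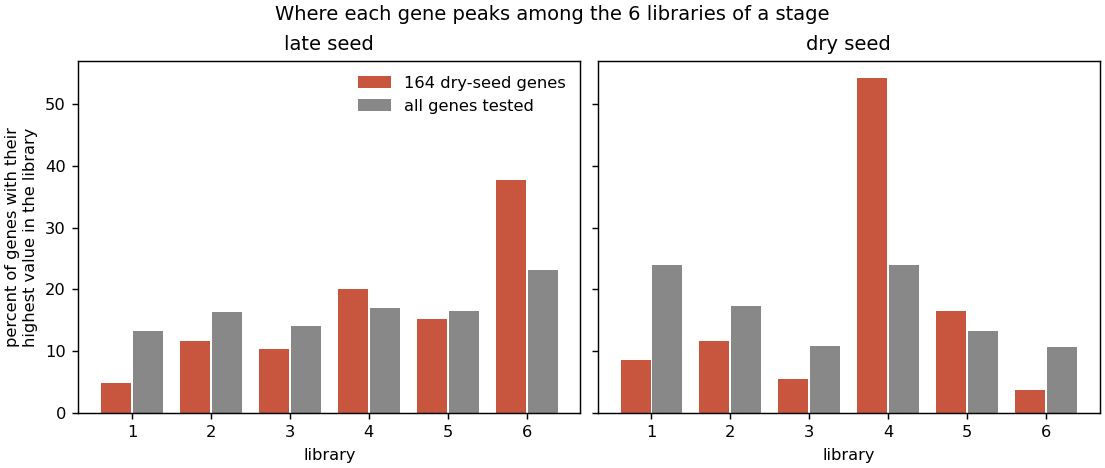
Percent of genes whose highest value among the 6 libraries of late seed (left) and dry seed (right) was in each library, for the 164 dry-seed genes and for all 18440 genes tested. Dry-seed library 4 holds 54.3% of the dry-seed genes against 23.9% of all genes, and late-seed library 6 holds 37.8% against 23.2%. The values of both stages entered the rule, so the contrasts with all genes are a description.

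Members differed in how much they changed through the developing stages. The highest of the early, mid and late means (each raised by 1) was under 1.5 times the lowest in 88 members, or 53.7%, at least 2 times the lowest in 31 and at least 4 times in 10. With stage means of at least 10 required, 54.4% of 160 members stayed under 1.5, against 28.4% of 444 dry-seed genes that differ between the parts and 35% of 16466 genes tested. This contrast was not tested, and the rule itself capped each stage at the dry-seed mean divided by 4 and asked for even parts. The highest developing stage was early seed in 53 members, mid seed in 41 and late seed in 70.

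Between early and mid seed, which the rule did not compare with each other, 41 members rose and 25 fell (edgeR quasi-likelihood test, adjusted p under 0.05), and 98 did not pass. Of all 18440 genes tested 26% rose and 23.6% fell. The members' 25% that rose was near that background and their 15.2% that fell was below it, with a median log2 change of 0.09 against 0.02 over all genes. By at least 2-fold, 12 members rose and 5 fell, against 10.3% and 9.26% of all genes tested. With upper-quartile scaling 34 rose and 32 fell, so that the surplus of rises over falls was smaller. The shares over all genes at that scaling are not given here, so these counts are not set against a background. Of the 65 genes left by a stricter limit between the parts, 15.4% rose and 9.23% fell, both below the background.

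Sc05g0006390 rose most among the members whose early and mid libraries did not overlap. It ranged from 75.1 to 125.1 normalized counts in early seed, with a median of 104, and from 297 to 690 in mid seed, with a median of 399. The log2 change was 2.14 ± 0.23 (SE; edgeR adjusted p = 5.71e-08). It then stood at 286 ± 78 in late and 5528 ± 1639 in dry seed (SD, n = 6), so its rise into mid seed was small beside its dry-seed level. Sc22g0002120 rose by 1.91 ± 0.19 on the log2 scale (SE; edgeR adjusted p = 2.20e-08), from 102 to 160 in the early libraries to 374 to 748 in the mid ones.

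The falls named here were the largest with no overlap between libraries and 10 CPM or more in early seed. Some called members outside these limits fell further, such as Sc21g0004650, at -1.54 on the log2 scale. Sc06g0008590 went from 113 to 213 normalized counts in the early libraries to 65.1 to 80.2 in the mid ones, with medians of 178 and 70.2. Its log2 change was -1.21 ± 0.18 (SE; edgeR adjusted p = 5.38e-06), and in dry seed it reached 845 ± 238 (SD, n = 6). Sc23g0005830 fell by 0.74 on the log2 scale (SE 0.18; edgeR adjusted p = 0.00167), from 998 to 1495 in early seed to 435 to 878 in mid seed. It was back at 1257 to 2468 in late seed, where library 6 held the highest value, and stood at 6961 ± 1465 in dry seed (SD, n = 6).

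From mid to late seed, 45 members rose, 29 fell and 90 did not pass by edgeR's test. Over all genes tested 27.3% rose and 29.8% fell, so the members' 27.4% of rises was close to the background and their 17.7% of falls was below it. The median log2 change was 0.06 over the members and -0.02 over all genes, and by at least 2-fold 13 members rose and 3 fell, against 10.3% and 14.2% of all genes tested. Without late-seed libraries 4 and 6 together, 35 rose and 34 fell. The shares over all genes in that fit are not given here, so whether falls stayed below the background is not known.

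Sc17g0001180 and Sc08g0007190 rose most from mid to late seed and from early to late seed. Sc17g0001180 was near the limit of detection in early seed, with 0 to 9.63 normalized counts, and had 1.71 to 28.3 in mid seed and 113 to 379 in late seed. The log2 changes were 4.09 ± 0.53 from mid to late seed and 5.47 ± 0.62 from early to late seed (SE; edgeR adjusted p = 6.35e-07 and 3.87e-08). Late seed lay above every mid and early library, and dry seed, at 1230 ± 990 (SD, n = 6), was above every late-seed library with the least margin in its library 6, at 392 against 379.

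Sc08g0007190 had 110.2 to 277 normalized counts in early seed, 114 to 394 in mid seed and 1777 to 5485 in late seed. Its log2 change was 3.87 ± 0.41 from mid to late seed and 4.17 ± 0.42 from early to late seed (SE; edgeR adjusted p = 2.51e-08 and 4.35e-09). Mid-seed libraries 4 and 5, at 350.4 and 394, were above the 4 others, which were at most 135, and late-seed libraries 2 and 6 were at 4486 and 5485. In dry seed it ranged from 6527 to 23925. Early and mid seed overlapped, late seed lay above both and dry seed above late seed.

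The largest falls from mid to late seed were those of Sc16g0007120 and Sc05g0003740. Sc16g0007120 went from 406 ± 27 in early seed up to 790 ± 103 in mid seed and down to 314 ± 122 in late seed, and then to 3852 ± 1114 in dry seed (SD, n = 6). Its log2 change from mid to late seed was -1.32 ± 0.20 (SE; edgeR adjusted p = 4.14e-06). The late libraries ranged from 194 to 533, all below the lowest mid library at 615. Sc05g0003740, described above for its dry-seed level, fell from 843 to 1812 in mid seed to 320.2 to 544 in late seed, a log2 change of -1.28 ± 0.19 (SE; edgeR adjusted p = 3.41e-06).

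**Figure D4:**
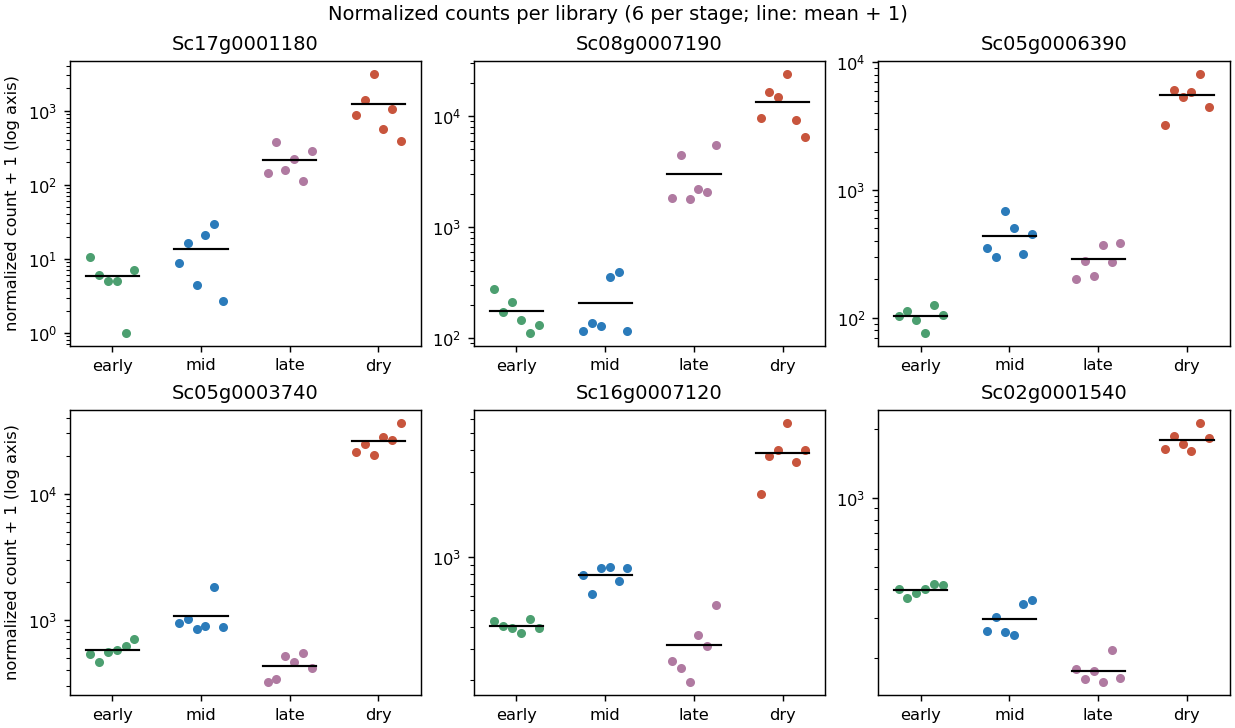
Normalized counts plus 1, on log axes, of 6 genes named for the largest changes between the developing stages, in the 6 libraries of each stage, with a line at the mean plus 1. Sc17g0001180 and Sc08g0007190 step up in late seed, Sc05g0006390 in mid seed, Sc05g0003740 and Sc16g0007120 dip in late seed, Sc02g0001540 falls through development, and dry seed is highest in all 6.

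Over the whole span from early to late seed, 61 members rose, 31 fell and 72 did not pass by edgeR's test. Of all genes tested 33.3% rose and 33.1% fell, and of the members 37.2% rose and 18.9% fell. The median log2 change was 0.16 over the members and 0.003 over all genes. By at least 2-fold, 19 members rose and 2 fell, against 16% and 17.9% of all genes tested. With upper-quartile scaling the counts were 53 and 44. Shares over all genes at that scaling are not given here. Whether the members' falls stayed below the background there is therefore not known. Among the 502 tested dry-seed genes that differ between the parts, 245 rose and 66 fell, or 48.8% and 13.1%. Whether these shares differ from those of the members was not tested, and this comparison shares its libraries with the others of the series.

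The largest falls over that span were small. Sc02g0001540 lay lower at each developing stage than at the one before, with 366 to 420.0 normalized counts in early seed and 251 to 360 in mid seed and 157 to 216 in late seed. Its log2 change was -1.11 ± 0.10 from early to late seed (SE; edgeR adjusted p = 1.10e-09). Its dry-seed libraries then lay between 1600 and 2114, above all developing ones. Sc24g0001450 stood at 642 ± 49 in early, 628 ± 128 in mid and 295 ± 85 in late seed and at 3124 ± 928 in dry seed (SD, n = 6). Its change from early to late seed was -1.05 ± 0.17 on the log2 scale (SE; edgeR adjusted p = 8.29e-06).

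**Figure D5:**
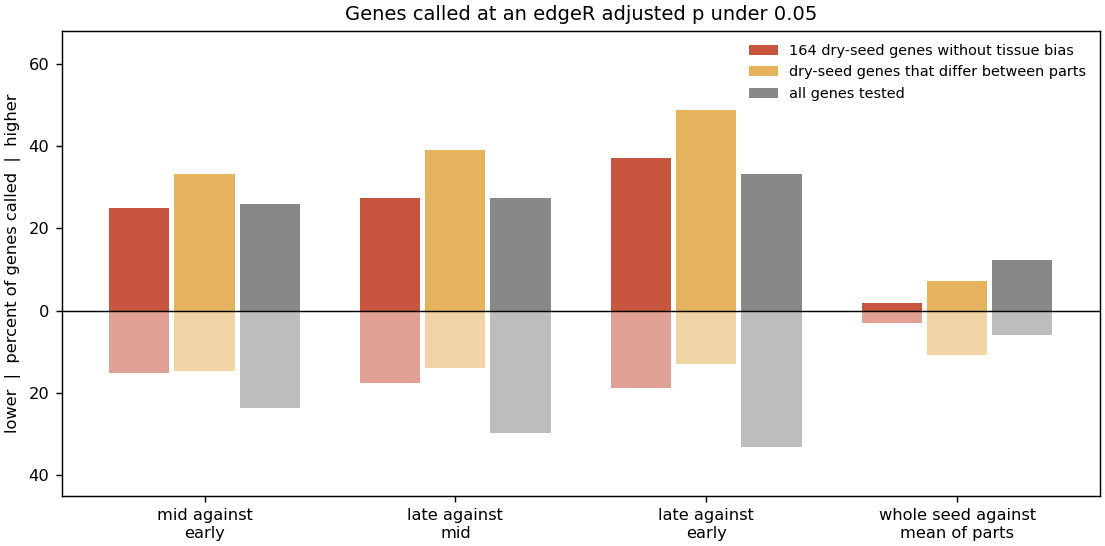
Percent of genes called higher (above 0) or lower (below 0, paler) at an edgeR adjusted p under 0.05 in the comparisons that did not choose the genes, for the 164 dry-seed genes without tissue bias, for dry-seed genes that differ between the parts and for all genes tested. From early to late seed the 164 genes show 37.2% higher and 18.9% lower, against 33.3% and 33.1% of all genes. Whole seed holds the parts that the rule kept even, so low shares of the 164 genes there are favoured by the rule.

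Late-seed libraries stood at different distances from the dry seed. In the median member, late-seed libraries 6 and 4 were at 18.0% and 17.0% of the dry-seed mean, and the 4 other late libraries at 14.4% to 15.9%. Library 6 held the highest late-seed value of 62 members (37.8%, against 23.2% of all genes tested), and library 1 the lowest value of 42. The highest value reached by any member in a late library was 40.9% of its dry-seed mean, in library 6. The members' share of counts was 0.646% and 0.640% in libraries 6 and 4 and 0.496% to 0.559% in the others. The rule kept each late-seed mean at or under the dry-seed mean divided by 4, so the distance itself is no result. The contrast with all genes tested is likewise a description.

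In the dissected mid-stage seed the members were at like levels by the rule. The ratio of the highest to the lowest part was under 1.1 in 9 members, from 1.1 to under 1.3 in 77 and from 1.3 to under 1.5 in 78, and 46 members were highest in cotyledon, 59 in axis and 59 in seed coat. At the limit, the last member had a ratio of 1.4997 and the nearest gene outside it 1.5001. Cotyledon, axis and coat medians over the members were 317, 327 and 325 normalized counts plus 1. The members took 0.458% ± 0.047 of counts in cotyledon, 0.540% ± 0.022 in axis, 0.579% ± 0.010 in coat and 0.530% ± 0.023 in whole seed (SD, n = 5).

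Libraries of a part were less even than the part means. Sc08g0007190 had 963, 508, 1315, 1455 and 1476 normalized counts in cotyledon libraries 1 to 5, 674, 975, 1143, 1010.4 and 1472.5 in axis libraries 1 to 5, and 1058, 1058, 1298, 1063 and 1019 in coat libraries 1 to 5. Its parts overlapped throughout, which did not hold for every member. Sc16g0006380 had 18309 to 20939 in seed coat, above all its axis libraries at 12957 to 14057. Sc08g0002620 had 896 to 1015 in axis, below all its seed coat libraries at 1272 to 1407. Sc17g0000500 had 65.3, 68.7, 252, 52.6 and 96.0 in coat libraries 1 to 5, so that its coat mean rested on library 3. That library held the highest coat value of 69 members and the lowest of 54, which is 42.1% and 32.9%, against 32.2% and 35.5% of all genes tested. Coat values entered the rule, so nothing is read from this contrast.

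Whole seed of the mid stage was not used by the rule, and it holds the parts. Against the mean of the 3 parts, 3 members were higher and 5 lower in whole seed by edgeR's test, and 156 did not pass. Of all 18499 genes tested in this series 12.3% were higher and 5.89% lower, and of the members 1.83% and 3.05%. The median log2 difference was -0.07 over the members and 0.01 over all genes, and no called member differed by 2-fold, while 4.88% of all genes tested were called higher and 0.524% lower by at least that much. All genes tested include those that differ between parts, while the rule kept members with even parts. Whole seed holds these parts, so low shares among the members are favoured by the rule and nothing is read from them. Without a filter on low counts 0 members were lower, without cotyledon libraries 1 and 5 together 13 were, and DESeq2's Wald test gave 10. Leaving out any library other than seed coat 3 or 4 moved the count of lower members by more than 1.5 times, to between 0 and 9. Without axis library 4 or whole-seed library 3, 4 or 5, 0 members were higher.

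By group means, whole seed was below all 3 parts in 53 members, above all 3 in 15 and between them in 96. Among 4963 other genes with parts as even, 26.6% were below and 9.75% above, and among the members 32.3% and 9.15%. Whether these shares differ was not tested. In no member was whole seed higher, or lower, than each of the 3 parts with all 3 differences passing: by edgeR the counts were 0 and 0 both at an adjusted p and at an unadjusted p under 0.05, and by DESeq2 0 and 0. Of all genes tested, 0.00541% were higher and 0.0541% lower in this sense.

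No member had whole-seed libraries clear of all 15 dissected libraries, which 0.0432% of all genes tested did. None therefore met the rule for naming, and the members given here were taken after their values were seen. Sc22g0002120 had 323, 291, 385, 351 and 369 normalized counts in whole-seed libraries 1 to 5. In cotyledon libraries 1 to 5 it had 505, 513, 839, 855 and 532. Whole seed was below every cotyledon library but overlapped the axis, at 375 to 687, and the coat, at 295 to 842. Coat library 3 alone held the 842, while the other coat libraries were at most 465. The log2 difference from the mean of the parts was -0.61 ± 0.21 (SE; edgeR adjusted p = 0.0438). Without coat library 3 this difference was -0.48, and the gene leaves the list. Sc13g0004470 was lower by -0.36 ± 0.12 (SE; edgeR adjusted p = 0.0347).

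Sc03g0010440 was higher in whole seed, at 757, 773, 854, 789.7 and 943 normalized counts in libraries 1 to 5, than in the mean of the parts, by 0.38 ± 0.13 on the log2 scale (SE; edgeR adjusted p = 0.0393). Sc01g0010860 was higher by 0.30 ± 0.10 (SE; edgeR adjusted p = 0.0449). All 4 calls were lost without whole-seed library 3 or without whole-seed library 5, at edgeR adjusted p from 0.0564 to 0.116. The calls were also lost without axis library 4 for Sc03g0010440, Sc01g0010860 and Sc22g0002120 (0.0515 to 0.0627), and without whole-seed library 4 for the same 3 genes (0.0614 to 0.0805). For Sc22g0002120 and Sc13g0004470 they were lost without cotyledon library 3, axis library 1 or 2 or whole-seed library 2 (0.0529 to 0.174). Cotyledon library 1 for Sc01g0010860, cotyledon library 4, coat library 5 and whole-seed library 1 for Sc22g0002120, and coat libraries 1, 2 and 3 for Sc13g0004470 each did the same (0.0529 to 0.118). Leaving out cotyledon libraries 1 and 5 together ended the call of Sc01g0010860 (0.0532), and fitting with no filter on low counts ended those of Sc22g0002120 (0.0559) and Sc13g0004470 (0.0667).

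The members' identifiers were spread over 25 of the 27 prefixes in the table, the part of an identifier before the g. The prefix with the most members, Sc13, had 13 of its 1105 genes on the list. Sc14, with 931 genes, and the prefix ScUN, with 165, had none. Members on neighbouring rows with a shared prefix occurred in 2 pairs. What the prefixes stand for is not given in the sources used here, and no position is drawn from them.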

How the data were processed

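Per gene and library, the deposited tables give raw read counts as whole numbers. Normalized versions from the authors hold a signal relative to library size that equals the count divided by 1 factor per library (largest relative spread 1.10e-09). Per the submitters' processing notes, Trimmomatic, STAR and DESeq2 were used. The sources used here give no versions, counting step, use of strand, genome build or annotation, so near-identical or overlapping genes may share reads. Columns were matched to libraries by the names in the labels. No library looked like a duplicate of another in its group: the smallest chi-square divided by its degrees of freedom was 8.50 in the developmental series and 10.6 in the dissection series.

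Members were found from the deposited normalized values. Tests used the counts, over all genes of a table, with edgeR 4.0.16 (R 4.3.3): TMM, filterByExpr, estimateDisp, glmQLFit and glmQLFTest, all 4 groups in 1 fit, Benjamini-Hochberg adjustment over 18440 and 18499 genes, threshold 0.05. SE is the log2 change divided by the root of F. The procedure was tested on simulated data. DESeq2 1.42.0 was an alternative. Tables and plots used Python 3.11.15, pandas 2.3.3, numpy 2.4.6 and matplotlib 3.10.9.

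The members and lists were chosen with earlier results of these data known. Named genes were, in each tested comparison, the 2 largest rises and 2 largest falls among members that passed the test, had 10 CPM or more on average in the higher group and showed no overlap between libraries. For dry seed they were the 2 most counted, the 2 with the largest ratio and those with the largest and smallest coefficient of variation. Alternatives were DESeq2, other scalings, no filter, a block for replicate number, a fit of the compared groups alone, libraries left out and a stricter limit between parts.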

Additional observations from a re-analysis of the deposited data

Results flagged for a closer look

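A library was set apart when its gap to the nearest other library of its group, divided by the range of the group, passed Dixon's critical value. This was tested in 144 groups of libraries, for the members' share of counts and for 17 named genes, and 15 stood out. Means of all groups but whole seed entered the rule that chose the members, and none of the 15 was in whole seed. The number that stood out is therefore a description. Chance sets apart about 1 group in 20, a rate that does not hold where genes were named for the values tested: Sc17g0001180 was named for its dry-seed spread, Sc08g0002620 for its lack of it, and others for groups of libraries that do not overlap.

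The members took 0.678% of counts in mid-seed library 5, against 0.561% to 0.605% in the other mid libraries. The same library was highest for Sc05g0003740, at 1812 normalized counts against 843 to 1018, and for Sc08g0002620, at 1515 against 899 to 1067. Library 5 held the highest mid-seed value of 71 members, or 43.3%, and of 27.5% of all genes tested. Mid-seed values entered the rule, so the contrast with all genes tested is a description.

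Late-seed library 6 was highest for Sc23g0005830, at 2468 against 1257 to 1549, and for Sc24g0001450, at 463 against 243 to 288. In dry seed, library 4 was highest for Sc24g0001450, at 4903 against 2216 to 3114, library 3 was highest for Sc17g0001180, at 3120 against 392 to 1377, and library 5 was lowest for Sc08g0002620, at 4220 against 4543 to 4687. In early seed, library 2 was lowest for Sc03g0010440, at 621 against 766 to 849.7.

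Seed coat library 3 was lowest for Sc23g0005830, at 389.6 against 654 to 739, and highest for Sc08g0007190, at 1298 against 1019 to 1063, and for Sc17g0000500, at 252 against 52.6 to 96.0. Axis library 3 was lowest for Sc24g0001450, at 412 against 496 to 508, and for Sc13g0004470, at 523 against 598 to 624.7. Cotyledon library 5 was lowest for Sc24g0001450, at 303 against 415 to 449.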

How the results depend on the processing

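The replicate numbers gave no clear sign of pairing: correlations between the deviations of same-numbered libraries of different groups ran from -0.292 to 0.257. The labels do not say whether such libraries share a source, and weak correlations cannot exclude it. In each pair of groups, at most 3 such correlations were over 0.1, and at most 2 libraries, of 6 or of 5, matched best with their own number. With the replicate block, members rising and falling were 42 and 24 from early to mid, 47 and 30 from mid to late and 61 and 33 from early to late seed, and 1 higher and 3 lower in whole seed, where Sc01g0010860 had an edgeR adjusted p of 0.0571. For whole seed against the mean of the parts, DESeq2 gave 10 lower members, no filter 0, and leaving out cotyledon libraries 1 and 5 gave 13. Leaving out 1 library gave 0 to 4 higher and 0 to 9 lower there; the cause was not tested. With a stricter limit on the ratio between parts the list held 65 genes, and the counts were 10 and 6, 16 and 11, and 20 and 14 in the order above and 3 lower in whole seed. With an 8-fold limit it held 24 genes. Of 332 alternatives for single named genes, 299 kept direction and call, 33 kept the direction only, all for whole seed, and 0 turned. Dropping the limit of 200 genes and using only the groups compared for the mean of the parts changed nothing by construction. The early-seed values of Sc17g0001180 rested on 0 to 9 counts per library, near the limit of detection.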
